A study of Homo sapiens with 16 samples.

Results

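The 9 genes described here encode NF-kB subunits (NFKB1, NFKB2, RELA, RELB), feedback regulators of the pathway (NFKBIA, TNFAIP3, BIRC3) and widely used NF-kB target genes (SOD2, ICAM1). They were chosen by name, and all 9 were found once each among the 31329 named genes of the deposited intensity table. All 9 were also among the 17126 genes that passed a filter on detection. The RNA came from MDA-MB-231, a human breast cancer cell line long in culture, profiled on 16 Illumina BeadChip arrays in 8 groups of 2. The groups were the vehicle DMSO, entinostat alone (2.5 µM), ATRA (all-trans retinoic acid) alone (1 µM), doxorubicin alone (0.2 µM), entinostat plus ATRA, entinostat plus doxorubicin, ATRA plus doxorubicin, and the 3 drugs together. Every treatment lasted 48 h, and combinations used the same doses as the single drugs. Entinostat is an inhibitor of class I histone deacetylases. ATRA is the ligand of retinoic acid receptors, and the anthracycline doxorubicin breaks DNA by trapping topoisomerase II.

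NF-kB factors are dimers of related subunits that bind kappaB sites in DNA. In resting cells they are held in the cytoplasm by inhibitors such as the product of NFKBIA, or as unprocessed precursors, and kinases activated by cytokine receptors or by DNA damage release them. Released dimers switch on inflammatory, adhesion and survival genes together with their own inhibitors, which closes a feedback loop, and mesenchymal breast cancer lines such as MDA-MB-231 are known for constitutive NF-kB activity.

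Array replicates correlated at 0.9807 to 0.9909 across genes, and 11402 to 12748 genes were detected per array. Of 6 genes fixed as markers of the line, VIM, CD44, CAV1 and MSN were detected on 16 of 16 arrays, while SPARC and FN1 were near background, detected on 3 arrays and on 1 array. Of 6 luminal markers, ESR1 and PGR were detected on 0 arrays, GATA3 on 2, CDH1 on 1, FOXA1 on 9 and EPCAM on 16. Among 10 markers of other cell types, PTPRC, CD3E, DCN and LUM were among those detected on 0 arrays, but CD14 ran from 44.2 to 796.2 signal units. The summed signal of those 10 markers was 52 to 78 under DMSO, 114.8 to 212.5 under doxorubicin, 395 to 451.8 under entinostat and 883.3 to 950.7 under entinostat plus doxorubicin. Under ATRA it was 164.1 to 167.9, and under entinostat plus ATRA 546.2 to 570.8. ATRA plus doxorubicin gave 100.5 to 200.2 and the 3 drugs 632.2 to 801.6. Every group with entinostat was thus above every group without it. The part of this sum in the values of the genes below was not tested. In RNA from whole cultures, fewer cells of a type and less RNA per cell cannot be told apart. Whether replicates 1 and 2 were grown as separate cultures is not said in the labels, and the p-values therefore cover the spread between these arrays, which may be technical.

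Promoter sequence was read for 8 of the 9 genes from RefSeq (GRCh38.p14), as the 250 bases before each annotated start. The kappaB consensus, a motif of 10 bases searched on both strands, occurred in 5.2% of 35116 such windows over all genes. It occurred in 6 of the 15 windows of these 8 genes, those 6 belonging to NFKB1, NFKB2, NFKBIA, TNFAIP3 and BIRC3. Of the 3 windows of NFKB2, the one before the annotated gene start held no match. A 9-base form, GGAAATTCC, was added after the ICAM1 window had been read. It overlaps the consensus, was also searched on both strands, occurred in 0.413% of all windows, and was found in those of NFKB1, NFKBIA and ICAM1. Neither motif was present in these windows of RELA or SOD2, and RELB was not among the sequences used here. A match describes letters, not a bound site. The windows below are those of NFKB2, ICAM1, BIRC3 and NFKBIA, shown because these genes rose, fell or did not pass the test under doxorubicin while each holds a match. All are written 5′ to 3′ on the strand of the gene, with motif matches in capitals. They lie at chr10:102394328-102394577 (plus strand, before a start inside the annotated span of NFKB2), chr19:10270870-10271119 (plus strand), chr11:102317234-102317483 (plus strand) and chr14:35404750-35404999 (minus strand).
NFKB2: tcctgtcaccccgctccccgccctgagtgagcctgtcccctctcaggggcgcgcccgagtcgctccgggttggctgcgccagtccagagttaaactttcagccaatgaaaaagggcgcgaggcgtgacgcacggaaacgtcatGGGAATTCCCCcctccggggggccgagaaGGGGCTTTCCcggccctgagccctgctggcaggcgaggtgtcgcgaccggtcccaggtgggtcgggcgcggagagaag
ICAM1: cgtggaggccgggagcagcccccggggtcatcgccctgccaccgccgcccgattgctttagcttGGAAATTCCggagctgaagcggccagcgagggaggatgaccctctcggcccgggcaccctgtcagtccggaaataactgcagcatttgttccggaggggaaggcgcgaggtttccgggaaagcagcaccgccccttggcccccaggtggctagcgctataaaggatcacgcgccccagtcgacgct
BIRC3: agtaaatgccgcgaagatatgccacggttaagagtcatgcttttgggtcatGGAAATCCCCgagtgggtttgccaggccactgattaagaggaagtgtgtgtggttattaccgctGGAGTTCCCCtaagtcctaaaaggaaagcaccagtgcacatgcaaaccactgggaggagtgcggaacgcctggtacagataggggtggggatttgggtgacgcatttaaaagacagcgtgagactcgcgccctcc
NFKBIA: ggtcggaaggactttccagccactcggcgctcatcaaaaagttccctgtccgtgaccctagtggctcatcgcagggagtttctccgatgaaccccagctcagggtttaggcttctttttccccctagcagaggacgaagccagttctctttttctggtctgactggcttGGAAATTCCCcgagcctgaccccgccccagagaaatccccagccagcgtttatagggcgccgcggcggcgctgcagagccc
The capitals in NFKB2 mark GGGAATTCCCC, 107 to 97 bases before the start, and GGGGCTTTCC, 78 to 69 bases before it. In BIRC3 they mark GGAAATCCCC (199 to 190 bases before the start) and GGAGTTCCCC (135 to 126 bases). ICAM1 holds GGAAATTCC at 186 to 178 bases and NFKBIA holds GGAAATTCCC at 81 to 72 bases.

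Doxorubicin was the drug under which most of the changes in these genes were seen. With or without its partners, it raised NFKB2, SOD2 and ICAM1 and lowered BIRC3 in each of the 4 groups that received it. Against DMSO, RELB rose under doxorubicin alone and with ATRA. In arrays pooled over ATRA, doxorubicin raised RELB both without and with entinostat. Entinostat lowered NFKB1 in arrays pooled over ATRA, and RELA and NFKBIA did not pass the test in any comparison of the reported fit. Signals below are the deposited linear intensities of replicates 1 and 2. Changes are log2 differences from the limma fit on the scale of the offset signal, which understates changes of dim genes, each with its standard error (SE) and an adjusted p (Benjamini-Hochberg over all genes tested in that comparison), and a gene is called at an adjusted p below 0.05. The 7 comparisons with DMSO share the same 2 DMSO arrays. Where the arrays of a gene are said to separate by treatment, the share of all tested genes that do so was not counted.

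**Figure D1:**
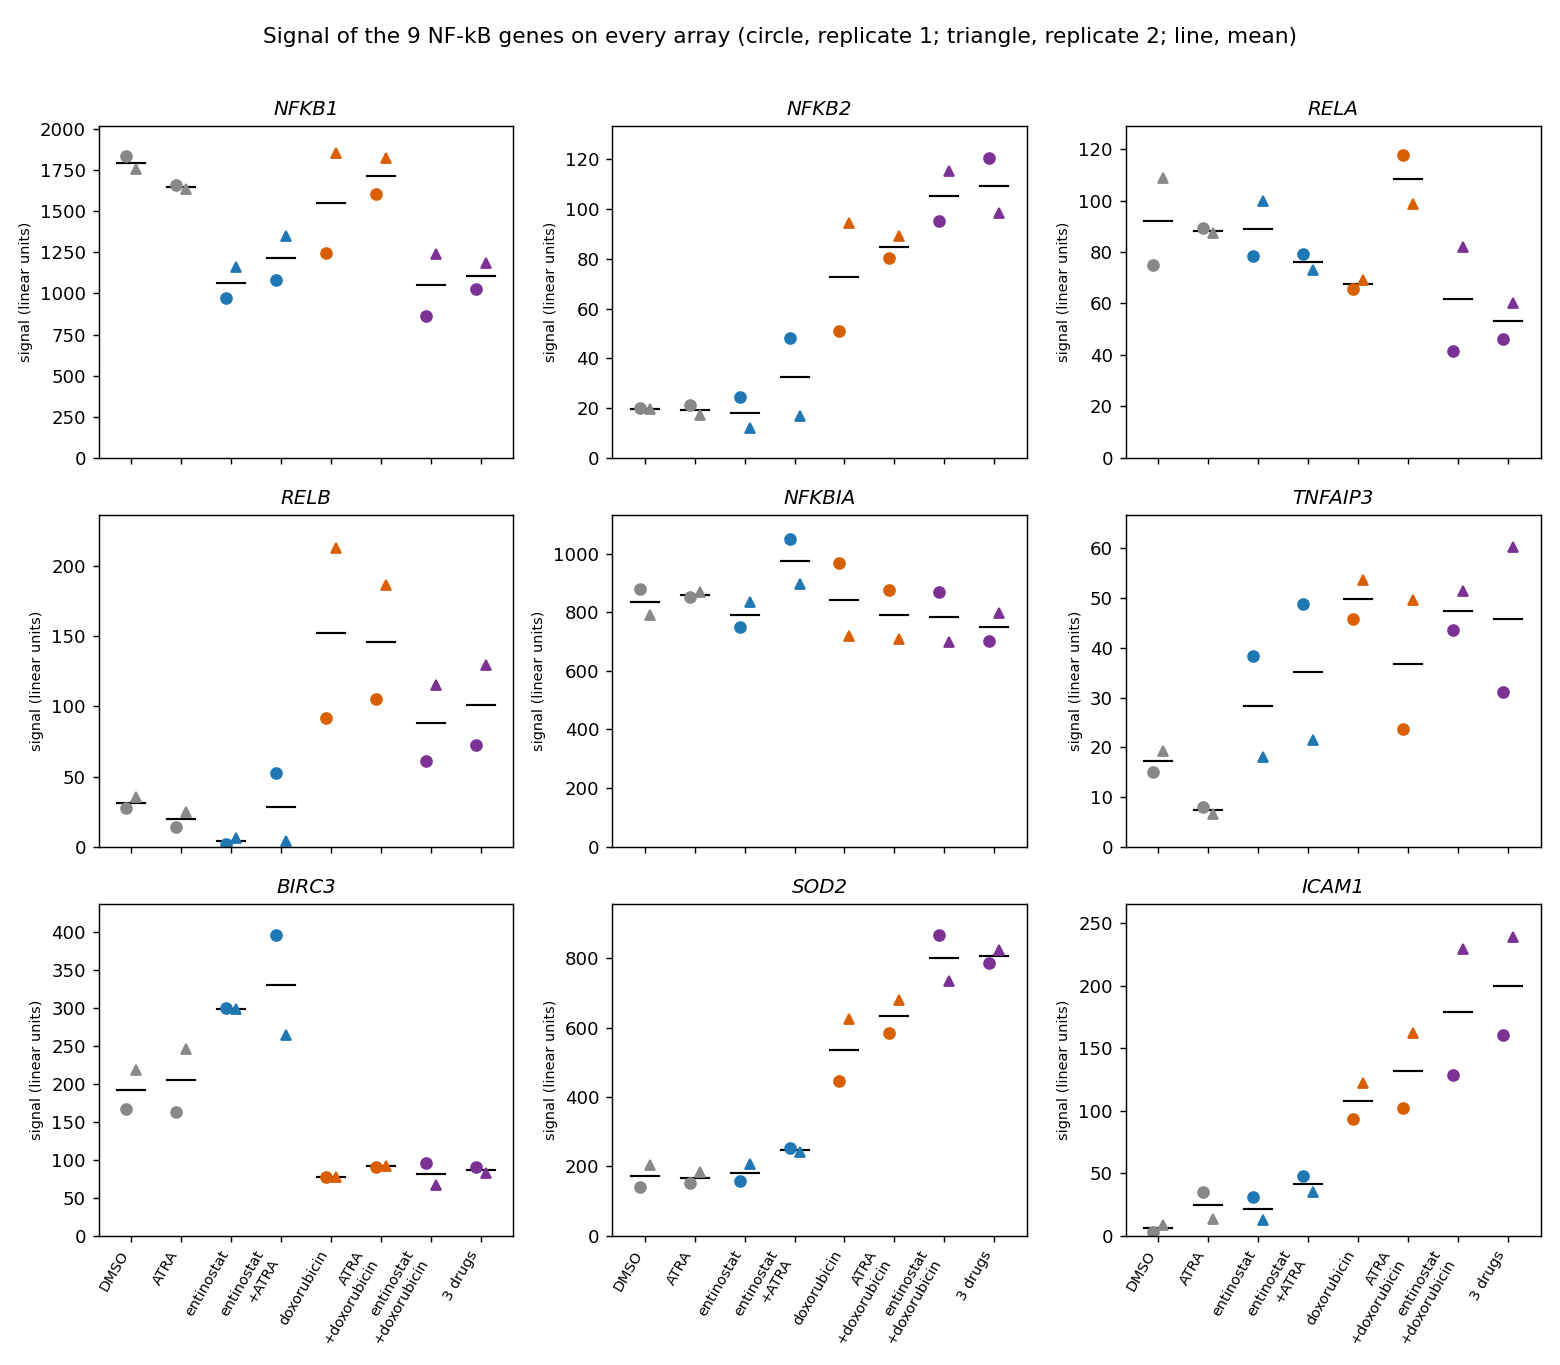
Signal of each of the 9 genes (linear units, vertical axes starting at 0) on the 16 arrays, by treatment group. Circles are replicate 1, triangles replicate 2 and lines the mean of the 2 arrays. NFKB2, RELB, SOD2 and ICAM1 stand higher, and BIRC3 lower, on every array with doxorubicin than on the arrays without it. The share of all tested genes that separate in this way was not counted. NFKBIA stays between 699.4 and 1051.2.

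Counted over the 9 genes, doxorubicin against DMSO called 5, where 13.6% of all tested genes were called. Of these 4 were higher (background 6.48%) and 1 was lower (7.12%). ATRA plus doxorubicin also called 5 (background 15%), 4 of them higher (7.4%) and 1 lower (7.57%). Entinostat plus doxorubicin called 5 (background 28%), with 3 higher (13.2%) and 2 lower (14.8%), and the 3 drugs called 5 (background 27.8%), with 3 higher (13%) and 2 lower (14.8%). With arrays pooled over ATRA, doxorubicin called 6 without entinostat (background 26.2%), 5 higher (12.8%) and 1 lower (13.4%). With entinostat it called 5 (background 33.4%), 4 higher (15.8%) and 1 lower (17.6%). Entinostat called 2 without doxorubicin (background 7.47%), BIRC3 higher (4.44%) and NFKB1 lower (3.02%). On doxorubicin it also called 2 (background 19.4%, near the 22.2% that 2 of 9 make), SOD2 higher (9.19%) and NFKB1 lower (10.2%). The median change over the 9 genes was 0.47 under doxorubicin and 0.42 under entinostat plus doxorubicin, with medians over all tested genes of -0.00257 and -0.0135. The count under doxorubicin was 2 without DMSO replicate 2 and 3 without DMSO replicate 1 or doxorubicin replicate 2. That under ATRA plus doxorubicin was 2 without its replicate 2 and 3 without DMSO replicate 2, and that under the 3 drugs was 3 without DMSO replicate 2. The entinostat count without doxorubicin was 0 without DMSO, ATRA, entinostat or entinostat plus ATRA replicate 1, and 1 without DMSO, ATRA or entinostat replicate 2. On doxorubicin it was 1 without entinostat plus doxorubicin replicate 1, ATRA plus doxorubicin replicate 1 or 3-drug replicate 2.

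In limma, 0 of the 9 genes were called under ATRA alone (background 0.0234%) or in the effect of ATRA over 8 arrays against 8 (background 0.111%), and 0 had an unadjusted p below 0.05 in either. For entinostat alone the count was 0 (background 1.58%), with 2 at an unadjusted p below 0.05. For entinostat plus ATRA it was 0 (background 2.46%), with 4 at an unadjusted p below 0.05, and 1 (BIRC3) was called without entinostat plus ATRA replicate 2 (adjusted p = 0.0411). The entinostat by doxorubicin interaction called 0 (background 1.86%), with BIRC3 the 1 gene at an unadjusted p below 0.05. The widest 95% intervals of the ATRA effect over all arrays were those of RELB (-0.24 to 0.38) and ICAM1 (-0.01 to 0.46).

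NFKB1 (chr4:102501359-102617302), which encodes a precursor processed to a DNA-binding subunit, was the subunit gene whose level followed entinostat. Signals were 1834.1 and 1755.9 under DMSO, 1659.2 and 1636.1 under ATRA, 970.9 and 1161.6 under entinostat, and 1083.2 and 1352.2 under entinostat plus ATRA. With doxorubicin they were 1246.8 and 1855.7 alone, 1605.5 and 1822.6 with ATRA, 864.7 and 1240.8 with entinostat, and 1028.6 and 1183.7 in the 3-drug group. The 4 arrays with entinostat and no doxorubicin all lay below the 4 with neither drug. Over those arrays entinostat lowered NFKB1 by a log2 change of -0.56 (SE 0.14, limma adjusted p = 0.0248), and on doxorubicin by the same -0.56 (SE 0.14, limma adjusted p = 0.0115). On doxorubicin the groups met at 1240.8 and 1246.8, and those 2 arrays changed order after normalization. The difference between the entinostat effects was 0 (95% interval -0.42 to 0.42). Doxorubicin itself gave -0.08 without entinostat (95% interval -0.38 to 0.21) and was not called. The call without doxorubicin was lost when any 1 of DMSO replicate 1, DMSO replicate 2, ATRA replicate 1, ATRA replicate 2, entinostat replicate 1 or entinostat plus ATRA replicate 1 was left out (adjusted p up to 0.111) and with normexp fitted from the detection p-values. The call on doxorubicin was lost without entinostat plus doxorubicin replicate 1 (adjusted p = 0.0521).

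Against DMSO, NFKB1 was lower by -0.74 under entinostat plus doxorubicin (SE 0.20, limma adjusted p = 0.0104) and by -0.66 under the 3 drugs (SE 0.20, limma adjusted p = 0.0208). Entinostat alone gave nearly the same size, -0.71 (95% interval -1.13 to -0.29), but was not called (limma adjusted p = 0.1). The first call was lost without DMSO replicate 1 or entinostat plus doxorubicin replicate 1 (adjusted p up to 0.13). The second was lost without either DMSO array or 3-drug replicate 1 (up to 0.138) and with normexp fitted from the detection p-values.

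NFKB2 (chr10:102394110-102402529) encodes the precursor of the other processed subunit, which pairs mainly with RELB in the non-canonical arm of the pathway. Without doxorubicin its signals were 19.9 and 19.6 under DMSO, 21.4 and 17.4 under ATRA, 24.3 and 11.9 under entinostat, and 48.1 and 17 under entinostat plus ATRA. Under doxorubicin they were 50.8 and 94.6, with ATRA added 80.3 and 89.1, with entinostat 95.1 and 115.4, and with both 120.5 and 98.5. Every array with doxorubicin was above every array without it, the nearest being 50.8 against 48.1. Doxorubicin raised NFKB2 1.66-fold without entinostat (log2 0.73, SE 0.12, limma adjusted p = 0.000432) and 1.88-fold with it (log2 0.91, SE 0.12, limma adjusted p = 4.65e-05). These 2 effects differed by 0.18 (95% interval -0.19 to 0.54), which was not called. Against DMSO the rises were 1.59-fold under doxorubicin (adjusted p = 0.0183), 1.73-fold with ATRA (0.00649), 1.94-fold with entinostat (0.000727) and 2-fold under the 3 drugs (0.000563), all in limma. The doxorubicin call was lost without either DMSO array or doxorubicin replicate 2 (adjusted p up to 0.2), in a fit of only the arrays compared and with normexp fitted from the detection p-values. That of ATRA plus doxorubicin was lost without its replicate 2 (0.0554). DMSO signals of NFKB2 were below 22.4, which is 3 times the noise SD.

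RELA (chr11:65653601-65663857), the main activating subunit of the canonical pathway, ranged from 41.4 to 117.9 with a median of 78.85 over the 16 arrays. DMSO gave 75 and 108.9, doxorubicin 65.8 and 69.2, ATRA plus doxorubicin 117.9 and 98.8, entinostat plus doxorubicin 41.4 and 82, and the 3 drugs 46.2 and 60.1. The lowest 2 values came from replicate 1 of the groups with entinostat and doxorubicin together, but most groups overlapped. Its entinostat effect on doxorubicin was -0.33 (95% interval -0.57 to -0.09, limma adjusted p = 0.054), and its change under the 3 drugs was -0.41 (95% interval -0.75 to -0.07, limma adjusted p = 0.0675). In the reported fit neither was called, nor was any other comparison of RELA. With the replicate number added to the limma fit as a block, both were called (adjusted p of 0.0303 and 0.0409). The doxorubicin effect with entinostat was then called too (0.0402). Leaving out entinostat plus doxorubicin replicate 2 turned the first into a call (-0.44, adjusted p = 0.0145), and leaving out DMSO replicate 1 the second (-0.57, adjusted p = 0.0494). Without entinostat plus doxorubicin replicate 2, RELA was also called lower under entinostat plus doxorubicin against DMSO (-0.56, adjusted p = 0.0295) and in the doxorubicin effect with entinostat (-0.40, adjusted p = 0.0133).

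RELB (chr19:45001464-45038192) encodes the subunit that partners the processed NFKB2 product. Its signals were 27.3 and 35.4 under DMSO, 14.2 and 24.6 under ATRA, 1.7 and 6.5 under entinostat, and 52.8 and 4.1 under entinostat plus ATRA. Under doxorubicin they were 91.4 and 212.7, under ATRA plus doxorubicin 105 and 186.5, under entinostat plus doxorubicin 61.1 and 114.9, and under the 3 drugs 72.5 and 129.2. All arrays with doxorubicin were above all arrays without it, and replicate 2 exceeded replicate 1 in each of the 4 doxorubicin groups. Doxorubicin raised RELB 2.26-fold without entinostat (log2 1.18, SE 0.21, limma adjusted p = 0.000707) and 1.94-fold with it (log2 0.95, SE 0.21, limma adjusted p = 0.00223). The difference between these effects, -0.22 (95% interval -0.85 to 0.40), was not called. With entinostat and no doxorubicin RELB was detected on 1 of 4 arrays. Its median signal there was 5.3, against 25.95 with neither drug. The offset therefore understates the 1.94-fold more than the 2.26-fold, and their order is not a result. Median signals on doxorubicin were 93.7 with entinostat and 145.75 without. The effect with entinostat was lost with normexp fitted from the detection p-values (adjusted p = 0.101). Against DMSO alone, RELB rose 2.12-fold under doxorubicin (limma adjusted p = 0.0236) and 2.1-fold under ATRA plus doxorubicin (limma adjusted p = 0.0233). With entinostat and doxorubicin the change was 0.61 (95% interval -0.02 to 1.23) and with the 3 drugs 0.72 (95% interval 0.10 to 1.35), neither called, though both were in a fit of only the arrays compared (adjusted p of 0.043 and 0.0187). Both calls against DMSO were lost without either DMSO array or without replicate 2 of the treated group (adjusted p up to 0.247), and with normexp fitted from the detection p-values, and that under doxorubicin also in a fit of only the arrays compared.

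NFKBIA (chr14:35401513-35404749) encodes IkB-alpha, the classical inhibitor that NF-kB itself induces. Its signals ran from 699.4 to 1051.2 with a median of 843.15. In signal, the 2 sets of arrays overlapped in each comparison except that of entinostat plus ATRA (1051.2 and 895.5) with DMSO (880.8 and 791.7). After normalization the arrays of that comparison overlapped too. The change was 0.00 under doxorubicin (95% interval -0.35 to 0.35), -0.09 under entinostat plus doxorubicin (95% interval -0.44 to 0.25) and 0.20 under entinostat plus ATRA (95% interval -0.15 to 0.55). None of its 13 comparisons was called in limma.

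TNFAIP3 (chr6:137866349-137883312) encodes A20, a ubiquitin-editing enzyme that shuts off the pathway. Signals were 15.1 and 19.3 under DMSO, 8 and 6.6 under ATRA, 38.4 and 18.1 under entinostat, and 48.9 and 21.5 under entinostat plus ATRA. Doxorubicin gave 45.8 and 53.7, ATRA plus doxorubicin 23.6 and 49.7, entinostat plus doxorubicin 43.5 and 51.5, and the 3 drugs 31.1 and 60.3. Without entinostat, the 4 arrays with doxorubicin lay above the 4 without, whereas with entinostat the arrays overlapped. With neither drug TNFAIP3 was detected on 1 of 4 arrays, at a median signal of 11.55. With doxorubicin and no entinostat the median was 47.75. The offset therefore understates the fold that follows. Doxorubicin raised TNFAIP3 1.38-fold without entinostat (log2 0.46, SE 0.12, limma adjusted p = 0.0107), a call lost without ATRA plus doxorubicin replicate 2 (0.058). With entinostat its effect was 0.20 (95% interval -0.06 to 0.46), and the difference between these effects, -0.27 (95% interval -0.63 to 0.10, limma adjusted p = 0.541), was not called. In no comparison with DMSO was TNFAIP3 called, the change under doxorubicin alone being 0.47 (95% interval 0.10 to 0.84).

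BIRC3 (chr11:102317484-102339403) encodes cIAP2, a ubiquitin ligase that acts in TNF receptor complexes and is itself an NF-kB target. Under doxorubicin it moved opposite to SOD2 and ICAM1. Under entinostat plus ATRA the changes of all 3 against DMSO were positive (BIRC3 0.60, SOD2 0.39, ICAM1 0.55), none called. Signals were 166.3 and 218 under DMSO, 162.9 and 245.8 under ATRA, 299.1 and 298.5 under entinostat, and 395.9 and 264.6 under entinostat plus ATRA. With doxorubicin they were 77.1 and 76.7, with ATRA added 90.1 and 92.1, with entinostat 95.8 and 66.6, and with both 89.8 and 82.1. The 3 sets did not overlap: the 8 arrays with doxorubicin were lowest, the 4 with neither entinostat nor doxorubicin came next, and the 4 with entinostat and no doxorubicin were highest. Doxorubicin lowered BIRC3 by -0.79 without entinostat (SE 0.13, limma adjusted p = 0.000325) and by -1.33 with it (SE 0.13, limma adjusted p = 2.77e-06). Entinostat raised it 1.43-fold without doxorubicin (log2 0.52, SE 0.13, limma adjusted p = 0.0217), while on doxorubicin its effect was -0.02 (95% interval -0.29 to 0.25). The test of that difference gave -0.54 (95% interval -0.92 to -0.16, unadjusted p = 0.00869), but it did not pass adjustment in limma (adjusted p = 0.153). The entinostat call was lost without any 1 of DMSO replicate 1, ATRA replicate 1, entinostat replicate 1, entinostat replicate 2 or entinostat plus ATRA replicate 1 (adjusted p up to 0.103).

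The falls of BIRC3 against DMSO were of similar size in the 4 doxorubicin groups. They were -0.83 under doxorubicin (limma adjusted p = 0.00681), -0.70 with ATRA (0.0161), -0.81 with entinostat (0.0032) and -0.76 under the 3 drugs (0.00512), each with an SE of 0.18. With normexp fitted from the detection p-values none of these 4 was called (adjusted p up to 0.201). Leaving out DMSO replicate 2 ended the call for doxorubicin (0.0698), the 3 drugs (0.0597) and ATRA plus doxorubicin, the last of which was also lost without either of its own arrays (up to 0.134).

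**Figure D2:**
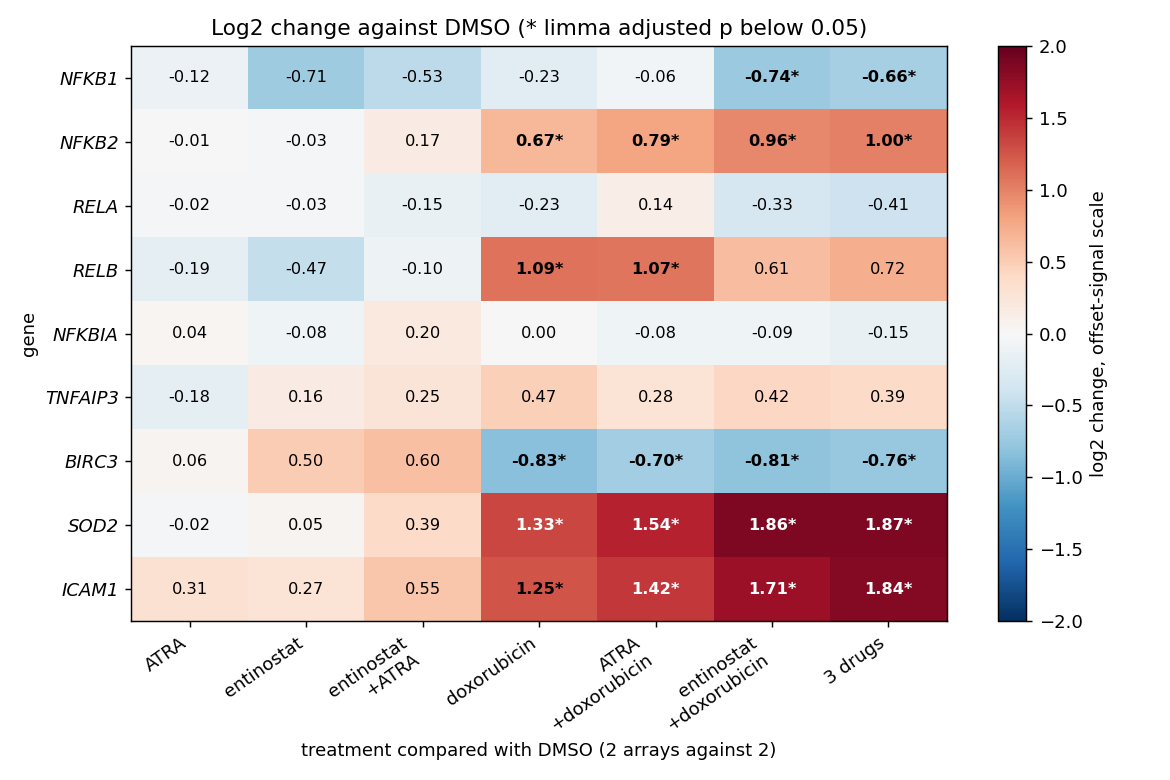
Log2 change against DMSO (offset-signal scale, 2 arrays against 2) of the 9 genes under each of the 7 treatments, with colour from blue (lower) to red (higher) and an asterisk where the limma adjusted p was below 0.05. NFKB2, BIRC3, SOD2 and ICAM1 carry an asterisk in the 4 columns with doxorubicin, and no gene does in the columns of ATRA, entinostat and entinostat plus ATRA. ICAM1 was not detected under DMSO, so its fitted values depend on the offset.

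SOD2 (chr6:159669069-159762281), the mitochondrial superoxide dismutase, detoxifies superoxide and is a long-known NF-kB target. Signals were 141.5 and 202.8 under DMSO, 152.5 and 182.4 under ATRA, 157.5 and 206.2 under entinostat, and 252.9 and 241.3 under entinostat plus ATRA. They reached 445.9 and 624.8 under doxorubicin, 585.5 and 680.8 with ATRA, 867.7 and 736.1 with entinostat, and 787.6 and 825.6 under the 3 drugs. No array with doxorubicin was as low as any without it. Doxorubicin raised SOD2 2.73-fold without entinostat (log2 1.45, SE 0.12, limma adjusted p = 3.02e-06) and 3.12-fold with it (log2 1.64, SE 0.12, limma adjusted p = 4.24e-07). Against DMSO the rise was 2.91-fold under ATRA plus doxorubicin (limma adjusted p = 0.000113), 3.63-fold under entinostat plus doxorubicin (5.12e-06) and 3.66-fold under the 3 drugs (5.79e-06). On doxorubicin, the 4 arrays with entinostat were all above the 4 without, a 1.35-fold rise (log2 0.43, SE 0.12, limma adjusted p = 0.0233). That call was lost in a fit of only those arrays, without replicate 1 of any of the 4 doxorubicin groups and without 3-drug replicate 2 (adjusted p up to 0.0986). Without doxorubicin the entinostat effect was 0.23 (95% interval -0.03 to 0.50), and the difference of 0.20 (95% interval -0.17 to 0.57) was not called. The deposited detection p-value of SOD2 was 0.05 or more on 7 arrays, although its lowest signal was 141.5.

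ICAM1 (chr19:10271120-10286615), the adhesion molecule that binds leukocyte integrins, was not detected under DMSO, with signals of 2.8 and 8.7. It gave 34.7 and 13.5 under ATRA, 30.6 and 12.6 under entinostat, and 47.3 and 34.5 under entinostat plus ATRA. Doxorubicin gave 93.5 and 122.2, ATRA plus doxorubicin 102 and 161.8, entinostat plus doxorubicin 128.3 and 229.2, and the 3 drugs 160.8 and 238.9. All 8 arrays with doxorubicin were above all 8 without it, and replicate 2 was the higher in each doxorubicin group. Because DMSO was below background, the rises against it are lower bounds. ICAM1 was at least 2.31-fold higher under doxorubicin (limma adjusted p = 0.00227), at least 2.6-fold with ATRA (0.000884), at least 3.17-fold with entinostat (6.42e-05) and at least 3.47-fold under the 3 drugs (3.88e-05). The calls for doxorubicin and ATRA plus doxorubicin were lost with normexp fitted from the detection p-values (adjusted p of 0.147 and 0.0723). Pooled over ATRA, the doxorubicin effect was 2.27-fold without entinostat (log2 1.18, SE 0.16, limma adjusted p = 7.96e-05) and 2.57-fold with it (log2 1.36, SE 0.16, limma adjusted p = 1.38e-05). The difference between these effects, 0.18 (95% interval -0.29 to 0.65), was not called. ICAM1 was detected on 1 of 4 arrays with neither drug (median signal 11.1). With entinostat and no doxorubicin it was detected on 3 of 4 (median 32.55). The offset therefore understates the 2.27-fold more than the 2.57-fold, and their order is not a result. Median signals on doxorubicin were 112.1 without entinostat and 195 with it. The entinostat effect on doxorubicin was 0.43 (95% interval 0.10 to 0.77, limma adjusted p = 0.0661) and was not called. It was called without entinostat plus doxorubicin replicate 1, 3-drug replicate 1 or ATRA plus doxorubicin replicate 2 (adjusted p from 0.0194 to 0.0472).

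**Figure D3:**
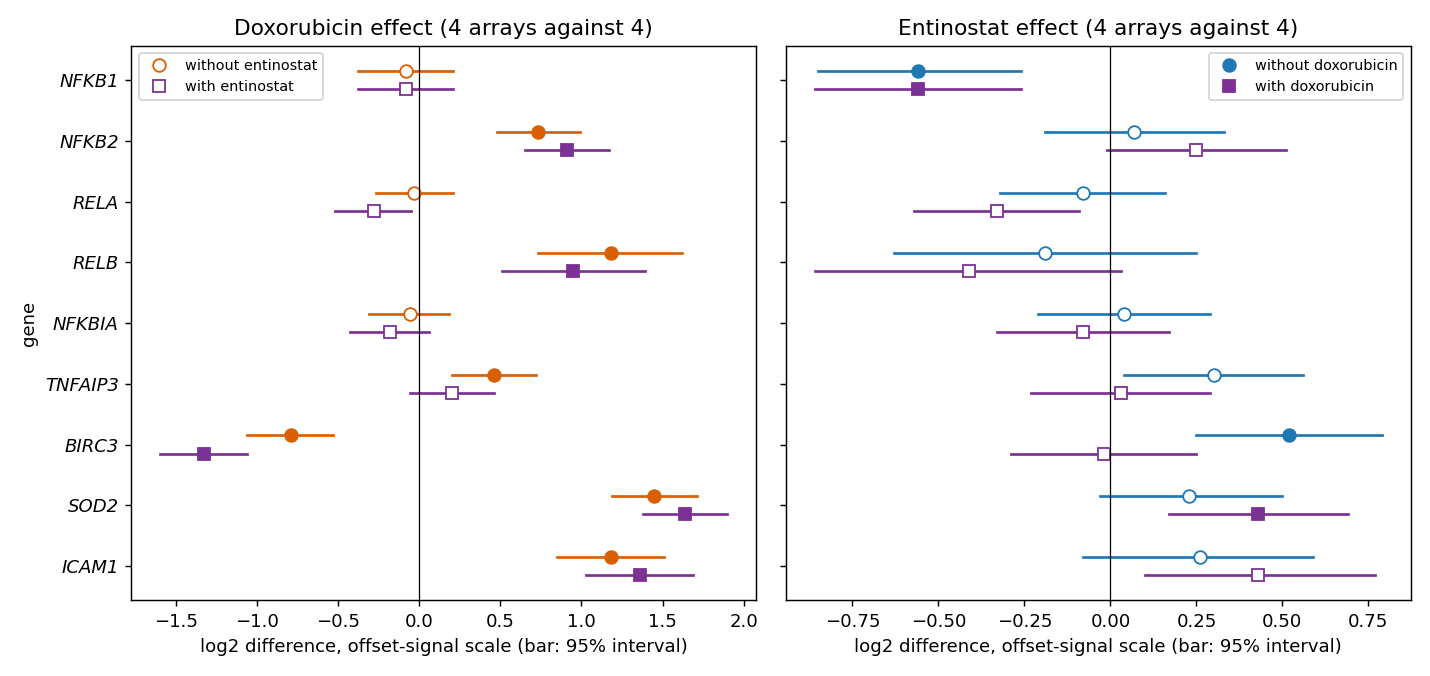
Log2 effects (offset-signal scale) with 95% intervals for the 9 genes, 4 arrays against 4. The left panel gives doxorubicin without and with entinostat and the right panel entinostat without and with doxorubicin, and filled symbols have a limma adjusted p below 0.05. The doxorubicin effect on BIRC3 was -0.79 without entinostat and -1.33 with it, and the entinostat effect on NFKB1 was -0.56 in both settings.

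Wider lists of pathway genes were described in the same fits. Of 18 kinases and adaptors, 17 were tested (TRAF5 was not). Doxorubicin raised 1 and lowered 1 against DMSO, where 6.48% and 7.12% of all tested genes were called higher and lower. Entinostat plus doxorubicin lowered 2 and raised 0, against 14.8% and 13.2% of all tested genes, so neither count of this list stood above that background. The list medians were 0.03 and -0.07. The gene lowered by doxorubicin was TBK1, a kinase related to the IkB kinases, at 217.4 and 109.7 against 482.2 and 403.5 under DMSO (log2 -1.17, SE 0.21, limma adjusted p = 0.00257). Under entinostat plus doxorubicin TBK1 fell to 102.7 and 47.1 (log2 -1.87, SE 0.21, limma adjusted p = 2.4e-05). All treated arrays of TBK1, named because it was called, were below the DMSO arrays, which adds nothing to its calls. The gene raised by doxorubicin was TRAF1, a TNF receptor adaptor, at 54.4 and 51.9 against 24 and 9.8 (log2 0.52, limma adjusted p = 0.0302), a call lost when any 1 of these 4 arrays was left out (up to 0.207), in a fit of only these arrays and with normexp fitted from the detection p-values. BIRC2, the ubiquitin ligase closest to BIRC3, fell under entinostat plus doxorubicin from 849.8 and 879.1 to 454.2 and 479 (log2 -0.81, SE 0.13, limma adjusted p = 0.000435).

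The list of the remaining subunit and inhibitors held 10 genes, of which 8 were tested (REL and CYLD were not). Under doxorubicin 0 were called in limma (background 13.6%) around a median of 0.32, with 5 at an unadjusted p below 0.05. The number higher was 3 without doxorubicin replicate 1 and 1 without doxorubicin replicate 2. Under entinostat plus doxorubicin 1 fell (background 14.8%) and 0 rose (13.2%), near the background, with a median of 0.06. Among the alternatives other than leaving out an array, 0 to 2 rose. The number that rose was 1 without entinostat plus doxorubicin replicate 1. The gene that fell was NFKBIZ, an atypical nuclear IkB protein, with 9.9 and 4.4 against 56.2 and 40.7 under DMSO. NFKBIZ was at least 1.55-fold lower (limma adjusted p = 0.00189), since the treated arrays were below background.

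Receptors and ligands numbered 16, of which 10 were tested (IL1R1, IL1RAP, TLR2, TLR3, TNF and LTB were not). Entinostat alone raised 2, where 1.58% of all tested genes were called either way. Doxorubicin raised 1 (background 6.48%), a count of 0 without DMSO replicate 1 and of 2 without doxorubicin replicate 1. Entinostat plus doxorubicin raised 5 (background 13.2%) and lowered 4 (14.8%). IL1B, the cytokine interleukin-1 beta, had DMSO signals of -9.4 and 0.4. Doxorubicin brought it to 92.3 and 88.7, at least 2.17-fold higher (limma adjusted p = 0.00437), a call lost without DMSO replicate 1 (0.052) and with normexp fitted from the detection p-values (0.452). With entinostat added IL1B was at 128.7 and 142.6, at least 2.76-fold higher (limma adjusted p = 0.000281), lost only with normexp fitted from the detection p-values among the 12 alternatives (0.165). IL1A, interleukin-1 alpha, went from 17.4 and -2.3 to 237.3 and 216.4 under entinostat plus doxorubicin, at least 3.75-fold higher (limma adjusted p = 4.46e-05). TNFRSF1B, the second TNF receptor, rose from 95.7 and 28.6 to 614.1 and 390.5 (log2 2.15, SE 0.34, limma adjusted p = 3e-04). TNFRSF12A, the receptor of TWEAK and an activator of the non-canonical arm, fell from 1047.2 and 1628.8 to 527.8 and 426 (log2 -1.34, SE 0.22, limma adjusted p = 0.000408). The number lowered was between 1 and 4 when single arrays were left out, and the number raised was 5 each time.

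Of 24 other target genes, 23 were tested (BCL2A1 was not). Doxorubicin raised 2 (background 6.48%) and lowered 1 (7.12%), near the background in the reported fit. With an offset of 16, with log2(signal + 50) and with a filter on signal (22 tested) it raised 5, and with the replicate block 6. Over all tested genes 969 of 17126 were raised with the offset of 16 and 1516 of 17126 with the block. The authors' log2 table, normexp fitted from the detection p-values and no filter each gave 2. A fit of only the arrays compared gave 1. The number raised was 1 without DMSO replicate 2 and 6 without doxorubicin replicate 1. The number lowered was 0 without DMSO replicate 1 or doxorubicin replicate 2 and 2 without doxorubicin replicate 1. Entinostat alone called 0 in limma (background 1.58%), with 8 at an unadjusted p below 0.05. Entinostat plus doxorubicin raised 15 (background 13.2%) and lowered 2 (14.8%). The list medians were 0.22, 0.18 and 0.81, beside -0.0026, -0.015 and -0.013 over all tested genes. Under doxorubicin CFLAR, which blocks caspase activation at death receptors, rose from 36.1 and 45.1 to 132.6 and 110.1 (log2 0.80, SE 0.12, limma adjusted p = 0.00111). The chemokine CCL5 rose from 25.5 and 22.9 to 57.7 and 105.8 (log2 0.68, SE 0.15, limma adjusted p = 0.00777), a call lost without DMSO replicate 2 or doxorubicin replicate 2 (up to 0.1) and in a fit of only these arrays. BCL2L1, which encodes the survival protein BCL-xL, fell from 1251.3 and 1228.4 to 759.2 and 554.4 (log2 -0.86, SE 0.18, limma adjusted p = 0.006), lost without DMSO replicate 1 or doxorubicin replicate 2 (up to 0.0742). These 3 genes, named because they were called, did not overlap between doxorubicin and DMSO. The share of all tested genes without overlap was not counted, so this adds nothing to the calls.

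Under entinostat plus doxorubicin the largest of the called changes in that list were those of chemokines and of GADD45B. IL8, a neutrophil chemokine, rose from 106.2 and 48.6 to 771.2 and 868.1 (log2 2.62, SE 0.63, limma adjusted p = 0.00585), lost without DMSO replicate 2 (0.0549) and with normexp fitted from the detection p-values (0.148). GADD45B, a stress-induced regulator of MAP kinase signalling, rose from 259.2 and 353 to 1628.8 and 1000.3 (log2 1.86, SE 0.26, limma adjusted p = 0.000117). The monocyte chemokine CCL2 had DMSO signals of -12.9 and -7.5 and reached 129.9 and 58.6, at least 2.15-fold higher (limma adjusted p = 0.000573). CXCL10, a T cell chemokine also induced by interferon, went from -0.4 and 8.4 to 365.8 and 993. In each of these 4 genes both treated arrays were above both DMSO arrays. They were named for their large called changes, and the share of all tested genes without overlap was not counted. Their separation therefore adds nothing to the calls. The count of 15 raised was 9 without DMSO replicate 2, 11 without entinostat plus doxorubicin replicate 2, and 10 with normexp fitted from the detection p-values, and the count lowered was 1 whichever single array was left out. The summed signal of the 10 markers of other cell types was higher under entinostat plus doxorubicin than under DMSO too, as given above. The single markers did not all move that way. Of the 4 that were tested, 2 were called higher (background 13.2%) and 1 lower (14.8%). Among the 10 markers, CD14 and PECAM1 were each detected on 13 arrays, VWF on 4 with a highest signal of 122, COL1A2 on 2 and CDH5 on 1. PTPRC, CD3E, DCN and LUM were among those detected on 0. Their part in these counts was not tested.

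**Figure D4:**
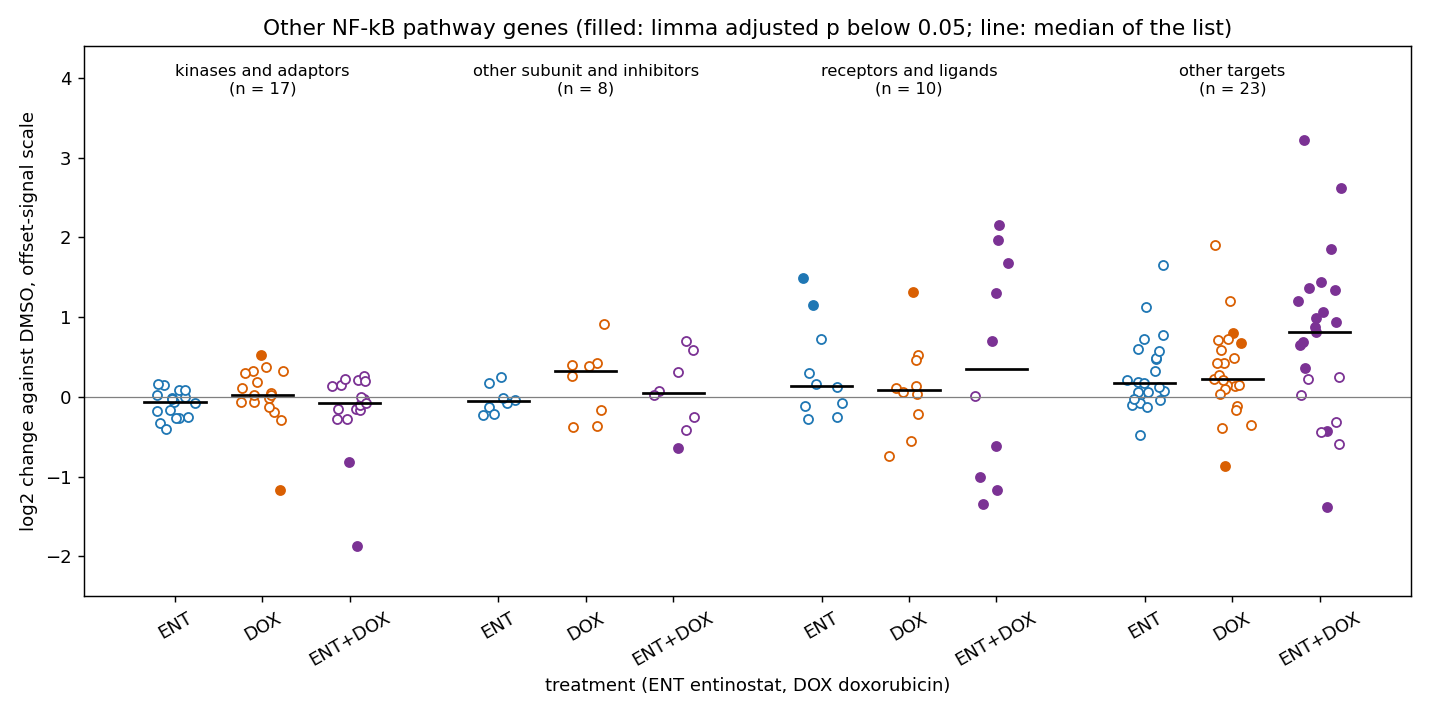
Log2 change against DMSO (offset-signal scale, 2 arrays against 2) of the tested genes of 4 wider lists under entinostat (ENT), doxorubicin (DOX) and both (ENT+DOX). Each circle is 1 gene, filled where the limma adjusted p was below 0.05, and lines are list medians. In the list of other targets the median is 0.18 under entinostat, 0.22 under doxorubicin and 0.81 under both.

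Across the 16 arrays, which share treatments, 3 of the genes followed one another closely in log2 level. Pearson's r was 0.96 between NFKB2 and SOD2, 0.95 between NFKB2 and ICAM1 and 0.94 between SOD2 and ICAM1. RELB joined them at 0.84 with NFKB2, and BIRC3 ran opposite to SOD2 at -0.82. RELA and NFKBIA had no such partner, with 0.61 between RELA and NFKB1 and 0.45 between NFKBIA and BIRC3 as their highest values among the 9. These are descriptions over arrays that fall into treatment groups, with no test.

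Among all tested genes, those with the profile most like each of the 9 over the 16 arrays were named by r. For NFKB2 they included FOSB (0.981) and KCTD13 (0.979). For SOD2 they included ASF1B (0.986) and CNPY4 (0.982). ICAM1 was followed most closely by SLC43A2 (0.971), ZNF155 (0.968) and ZDHHC1 (0.968), and RELB by ELL (0.963), MIS12 (0.957) and TTC32 (0.955). BIRC3 had ICAM2 (0.963), SEC22A (0.963) and LOC100133489 (0.962), while NFKB1 had DUS3L (0.949), CCDC86 (0.948) and SLC35F2 (0.935). TNFAIP3 was nearest to PPP4R4 (0.903), CNTNAP1 (0.896) and ZNF319 (0.89). The lowest likeness was that of RELA, to FARSA (0.847), UQCR (0.846) and ZNF598 (0.842), and of NFKBIA, to IER2 (0.811), LOC652160 (0.788) and RFC1 (0.786).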

How the data were processed

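Total RNA of MDA-MB-231 cells was labelled with biotin and hybridised to Illumina BeadChips, per the labels' protocols. The authors deposited 1 table of linear intensity and a detection p-value per gene and array, and 1 table of log2 values, and limma is the tool that appears in the submitters' processing notes, with no version. How probes were combined, and the array's background step, are not given in the sources used here. Deposited intensity values ran from -26 to 22098.4, so a background had been subtracted.

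Of 34691 names, 92 spike-ins and 3270 unnamed clusters were left out. Genes with a detection p-value below 0.05 on at least 2 arrays were kept (17126 of 31329). Normexp background correction with an offset of 50 was followed by quantile normalization and log2. Group means of all 16 arrays were fitted in limma 3.58.1 under R 4.3.3 (8 residual degrees of freedom), with 13 contrasts and Benjamini-Hochberg adjustment within each. The script was tested on simulated data. A group counts as not detected where no array had a detection p-value below 0.05 and none a signal of 22.4 or more (3 noise SDs, the noise SD being 7.34 to 7.48). Its fold is then a lower bound, for which each dim array enters at its own log2 value or at that of the dimmest detected gene, whichever is higher. The number of arrays limits the precision.

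The 9 genes, the wider lists and the tests were chosen with earlier results of these data known. From each wider list, up to 4 called genes with the largest absolute change are named under doxorubicin and under entinostat plus doxorubicin, and for each of the 9 genes the 3 most correlated genes. A few genes that these rules name are not reported here. Alternatives were the authors' log2 table, other background corrections and filters, a replicate block, fits of fewer arrays and leaving out each array. Promoter windows are from RefSeq tables (GRCh38.p14), so they describe the reference and not this line.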

Additional observations from a re-analysis of the deposited data

How the results depend on the processing

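Of 35 called results for the 9 genes, 427 of 480 recomputations kept the call, 53 lost it and 0 reversed. Of 82 results that were not called, 18 of 1266 recomputations passed the threshold. The counts of genes called, whose values under the reported settings stand above, moved by more than 1.5 times as follows. With normexp fitted from the detection p-values they were 1 under doxorubicin, 2 under ATRA plus doxorubicin, 3 under the 3 drugs and 1 for entinostat without doxorubicin. That fit put the noise SD at 212 to 313, against 7.34 to 7.48 from the negative signals and 1.52 to 1.85 in the reported fit, and its part in the lost calls was not tested. A fit of only the arrays compared, with fewer arrays to estimate the spread, gave 3 under doxorubicin and 1 for entinostat on doxorubicin. The replicate number as a block gave 1 under entinostat (NFKB1, adjusted p = 0.0176) and 4 for entinostat on doxorubicin, adding RELA (adjusted p = 0.0303) and ICAM1 (0.0412). It also turned RELA (0.0409) and RELB (0.0405) into calls under the 3 drugs, and RELA for doxorubicin with entinostat (0.0402). Deviations of same-numbered arrays from their group means correlated at 0.0194 to 0.424 over 28 pairs of groups (26 over 0.1, median 0.22). Most same-numbered arrays thus deviated together, a hint from the data that the numbers may mark something shared. The labels do not say so and 2 pairs of groups were not over 0.1, so the block was kept as an alternative.

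Leaving out single arrays gave 2 to 5 genes under doxorubicin, 2 to 4 under ATRA plus doxorubicin, 4 to 6 under entinostat plus doxorubicin, 3 to 5 under the 3 drugs and 0 to 1 under entinostat plus ATRA. Entinostat gave 0 to 2 without doxorubicin and 1 to 3 with it, and doxorubicin 5 to 6 both without and with entinostat. ATRA, entinostat alone and the interaction stayed at 0. Over all tested genes, the number called under entinostat alone was 270, but 546 with the block, 129 with the detection p-value correction, 26 and 180 without entinostat replicate 1 and 2, and 67 and 37 without DMSO replicate 1 and 2. Under entinostat plus ATRA it was 421, but 800 with the block, 277 with that correction and 124 to 351 without single arrays. Doxorubicin called 2329, but 1030 with only the arrays compared, 917 and 1349 without DMSO replicate 1 and 2, and 1074 without doxorubicin replicate 2. ATRA plus doxorubicin called 2564, but 1042 and 1495 without DMSO replicate 1 and 2, and 1525 and 1126 without its own replicate 1 and 2. The 3 drugs called 4768, but 3155 without DMSO replicate 1. Entinostat without doxorubicin called 1279, but 625 to 1080 without single arrays, and on doxorubicin 3322, but 2153 to 3389. The interaction called 318, but 684 with the block and 152 to 548 without single arrays. ATRA alone called 4, with 0 to 10 under the alternatives, and ATRA over all arrays called 19, but 32 with the block, 2 with that correction and 8 to 26 without single arrays. Among the 9 genes, leaving out doxorubicin replicate 1 or 2 also called the entinostat effect on doxorubicin for RELB (-0.62, adjusted p = 0.0489) or NFKB2 (0.36, adjusted p = 0.0461). Medians of all genes stayed within -0.033 to 0.01 on the log2 scale.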
